A study of Homo sapiens with 4 samples.

Results

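Open chromatin was examined at 10 genes of the Notch pathway in BJ cells, a line of human dermal fibroblasts: the receptors NOTCH1, NOTCH2 and NOTCH3, the ligands JAG1, JAG2 and DLL1, the DNA-binding partner RBPJ and the effectors HES1, HEY1 and HEY2. A region was assigned to a gene when the summit of its ATAC-seq peak lay in the gene body or within 50 kb of an annotated start site of the gene. ATAC-seq marks accessible DNA by the insertions of a transposase. By this rule 122 of the 101142 peaks of the CTR list and 124 of the 109486 peaks of the p63 list belonged to the 10 genes, and no region belonged to more than 1 of them. At a −log10 q of 10 or more, the threshold at which a region is called open below, 64 of 56680 CTR regions and 72 of 62343 p63 regions remained. The q is the false discovery rate that the peak caller gave to a peak.

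The cells carried a reverse tetracycline transactivator and a retroviral construct that doxycycline switches on, and both groups were induced with 1 µg/ml doxycycline for 72 h. The 2 CTR samples expressed KLF4 alone, and the 2 p63 samples expressed ΔNp63α, the isoform of p63 that lacks the N-terminal transactivation domain, joined to KLF4 through a self-cleaving peptide. Both groups thus expressed KLF4, and the comparison concerns what was added by ΔNp63α. The cells were polyclonal lines, and the replicates were separate inductions of the same lines. The authors deposited 1 peak list for each group, without values per replicate, so no test was made. Whether the reads of a list come from both replicates or from 1 library is not settled by the sources used here. The intervals of shares and of single ratios below cover counting error only. In such bulk lists, fewer cells with a region open and less opening in each cell cannot be told apart.

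Notch receptors are activated by ligands on neighbouring cells, after which proteases release their intracellular part, which enters the nucleus and binds DNA through RBPJ. RBPJ represses its targets without Notch and activates them with it, and the HES and HEY genes, which encode transcriptional repressors, are the best known of these targets. In the epidermis, p63 maintains the basal layer and Notch signalling promotes differentiation of the layers above it.

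Open chromatin at most of these genes differed little between the lists. The regions at the start sites of NOTCH1, NOTCH2, JAG1, RBPJ, HES1, HEY1 and HEY2 were open in both, with intervals of the p63/CTR read ratio that all included 1. At HEY1, RBPJ and NOTCH1 the summits compared lay 644, 286 and 209 bp apart. The regions listed as open only with p63 were 16 of 72 (22.2%), against 23.9% of all p63 regions, and lay at RBPJ (6), NOTCH3 (4), NOTCH2 (4), JAG1 (1) and HEY2 (1). The highest ratios stood at NOTCH3, in the first intron with 45 p63 reads against 15 CTR reads, and just upstream of the gene with 26 against 10. Both regions were open only with p63. The threshold selects such regions for high ratios, so the values do not show a difference apart from that selection. Here, reads at the summit are the reads stacked over the highest point of a peak, as solved from the deposited values.

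The sequences below are the summits of 3 regions that were open only with p63, and promoters that hold a sequence bound by RBPJ. The p53/p63 family site consists of a pair of decamers of 20 bp in all, each with a C and a G at its core. It was searched on both strands within 100 bp of a summit, keeping the core letters fixed and allowing 3 mismatches in the remaining 16 positions. In the first pair of windows, 201 bp long and centred on the summit, the capitals mark the closest site, which had 4 mismatches in each and so lay beyond that limit. In the window near HEY2 they mark the RBPJ motif (GTGGGAA, either strand). All windows are written on the plus strand of GRCh38.
NOTCH3 intron 1, chr19:15198109-15198309: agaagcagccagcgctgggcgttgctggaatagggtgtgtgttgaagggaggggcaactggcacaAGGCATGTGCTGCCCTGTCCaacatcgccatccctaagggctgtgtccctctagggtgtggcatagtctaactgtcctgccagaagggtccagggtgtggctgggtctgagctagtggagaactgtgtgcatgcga
RBPJ, upstream of the canonical start, chr4:26176842-26177042: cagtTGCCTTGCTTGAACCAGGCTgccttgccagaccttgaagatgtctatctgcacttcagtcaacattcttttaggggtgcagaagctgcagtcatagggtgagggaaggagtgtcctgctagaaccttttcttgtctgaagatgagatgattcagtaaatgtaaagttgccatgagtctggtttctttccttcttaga
Downstream of HEY2, chr6:125773482-125773682: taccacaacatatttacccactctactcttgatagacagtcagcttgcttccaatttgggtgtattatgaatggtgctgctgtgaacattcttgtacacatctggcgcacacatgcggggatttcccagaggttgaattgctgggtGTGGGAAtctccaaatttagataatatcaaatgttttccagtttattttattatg

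The promoters are shown as the 250 bases that precede a RefSeq start (GRCh38.p14), with the RBPJ motif in capitals, since HES1 and HEY2 are targets of Notch and RBPJ is the factor itself. The strand printed is that of the gene, the plus strand for all 3.
HES1, chr3:194135898-194136147: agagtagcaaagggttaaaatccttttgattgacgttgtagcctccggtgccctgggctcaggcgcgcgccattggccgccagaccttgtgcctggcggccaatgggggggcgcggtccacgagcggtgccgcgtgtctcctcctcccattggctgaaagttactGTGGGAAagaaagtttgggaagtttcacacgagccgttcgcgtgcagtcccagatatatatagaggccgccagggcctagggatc
HEY2, chr6:125749382-125749631: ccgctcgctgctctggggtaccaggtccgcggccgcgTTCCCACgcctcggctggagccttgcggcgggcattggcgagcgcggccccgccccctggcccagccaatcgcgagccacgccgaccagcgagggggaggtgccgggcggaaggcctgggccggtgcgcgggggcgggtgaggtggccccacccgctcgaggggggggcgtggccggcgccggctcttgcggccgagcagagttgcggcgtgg
RBPJ, chr4:26319496-26319745: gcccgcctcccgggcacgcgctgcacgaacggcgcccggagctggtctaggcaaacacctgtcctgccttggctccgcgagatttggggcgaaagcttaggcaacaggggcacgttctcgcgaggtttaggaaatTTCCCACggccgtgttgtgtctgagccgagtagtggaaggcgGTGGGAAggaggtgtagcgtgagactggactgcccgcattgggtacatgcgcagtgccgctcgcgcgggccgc
Counted from the first base printed in capitals, the motif lay 85 bases before the start of HES1 and 213 bases before that of HEY2. The RBPJ promoter held 2 exact copies on opposite strands, 115 and 73 bases before the start. Sites that differ from GTGGGAA by a letter were not searched, at HES1 or elsewhere, so the counts do not compare paired RBPJ sites between promoters. Of 35116 RefSeq promoters of 27305 genes, 1906 (5.43%) held the motif and 19 (0.0541%) held it on both strands. The promoters of NOTCH1, NOTCH2, NOTCH3, JAG1 and JAG2 and the other 4 listed for RBPJ did not contain these letters, and those of DLL1 and HEY1 were not analysed here.

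Over all 10 genes, the shares of regions open in 1 list only were near those of the whole lists. In the p63 list, 16 of 72 regions were p63-only, that is, without an overlapping CTR region at the threshold (22.2%, 95% Wilson interval 14.2 to 33.1%), against 23.9% of all p63 regions and 22.9% of those near any protein-coding gene by the same rule. In the CTR list, 9 of 64 were CTR-only (14.1%, 7.58 to 24.6%), against 16.5% of all and 15.4% near any protein-coding gene. Neither share stood apart from its background beyond counting error.

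Most list-only regions of the Notch genes had a weaker peak in the other list. Of the 16 p63-only regions, 13 overlapped a CTR peak below the threshold (18.1% of 72, 10.9 to 28.5%; 12.0% of all p63 regions), and 3 overlapped none at any threshold (4.17%, 1.43 to 11.5%; 12.0% of all and 11.4% near any protein-coding gene). The upper limit of the last share lay just below its background over all regions and just above that near genes. Of the 9 CTR-only regions, 7 overlapped a weaker p63 peak (10.9% of 64; 13.2% of all CTR regions) and 2 overlapped none (3.13%, 0.861 to 10.7%; 3.29% of all and 3.04% near any protein-coding gene).

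By gene, 5 of 10 had at least 1 p63-only region, which 58.2% of 20033 protein-coding genes also had, and 3 of 10 had one without any CTR peak (37.1% of genes). At least 1 CTR-only region was found at 4 of 10 (41.9% of genes), and JAG1 alone had one without any p63 peak (11.4% of genes). The number of p63-only regions was high at RBPJ, with 6, a number reached by 1.32% of protein-coding genes, and at NOTCH2 and NOTCH3, with 4 each, reached by 5.92%. The median gene had 1. These 3 genes also had many regions in all, 14, 16 and 11 in the p63 list, where the median gene had 5.

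**Figure D1:**
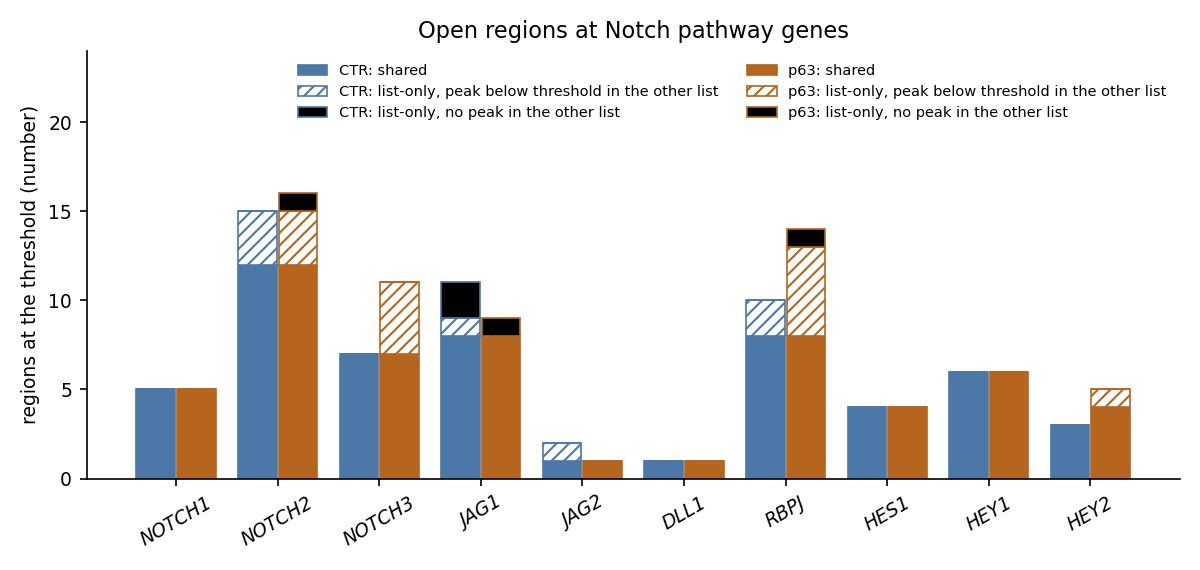
Number of open regions (−log10 q of 10 or more) at each gene, with the CTR list on the left and the p63 list on the right of each pair. Solid bars are regions shared by the lists, hatched bars are list-only regions with a weaker peak in the other list, and black bars have no peak there; the hatched part is largest at RBPJ, with 5 p63-only regions of this kind.

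The list-only regions had fewer reads than the shared ones, as the threshold makes likely, and the same held over the whole lists. The 16 p63-only regions had a median of 24.5 reads at the summit (17 to 45), while the 56 shared p63 regions had 39.5 (22 and 39 over all such regions). The 9 CTR-only regions had a median of 23 (15 to 28), while the 55 shared CTR regions had 45 (20 and 38 over all). No region with fewer than 15 reads at its summit reached the threshold in either list. The values nearest to the threshold were a −log10 q of 10.2 at a NOTCH2 region (17 reads) and of 9.98 at a NOTCH3 peak (22 reads) in the CTR list, and of 10.1 at a HEY2 region (27 reads) and 9.54 at a NOTCH2 peak (14 reads) in the p63 list.

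NOTCH3 (ENSG00000074181.9, chr19:15159038-15200995, minus strand), a receptor known for its role in vascular smooth muscle, had 7 CTR regions and 11 p63 regions. All 7 CTR regions were shared and 4 regions were p63-only. No peak of either list covered the start site itself.

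The region in intron 1 of NOTCH3 (chr19:15198026-15198343), 2786 bp into the gene, had 15 CTR reads and 45 p63 reads. Its p63/CTR ratio was 3.0 (1.64 to 5.79), the highest among the open regions of the 10 genes, and its −log10 q was 3.51 for CTR and 24.2 for p63. The summit window of this region is the first sequence printed above. The region 1935 bp upstream of the start (chr19:15202818-15203065) had 10 CTR reads and 26 p63 reads, a ratio of 2.60 (1.21 to 6.04). It was the peak nearest to the start of NOTCH3 in both lists. Both regions thus had a CTR peak below the threshold, with counting intervals of the ratio above 1. They were selected by the threshold as stronger in the p63 list, and the intervals do not allow for that.

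The other p63-only regions of NOTCH3 differed less. The region in intron 2 (chr19:15195064-15195767) had 22 CTR reads and 31 p63 reads, a ratio of 1.41 (0.790 to 2.55), and its CTR peak was the one just outside the threshold. The region downstream of the gene (chr19:15153966-15154231) had 12 CTR reads and 17 p63 reads, a ratio of 1.42 (0.638 to 3.25). The counts of these 2 regions did not differ beyond counting error.

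The 7 shared regions of NOTCH3 had ratios from 0.778 to 1.28 with a median of 1.0. The strongest p63 region of the 10 genes, with 94 CTR reads and 120 p63 reads (1.28, 0.966 to 1.69), was counted here by distance although it lies 3 bp from a start of ILVBL. A region 9592 bp upstream of NOTCH3 had 46 and 54 reads.

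**Figure D2:**
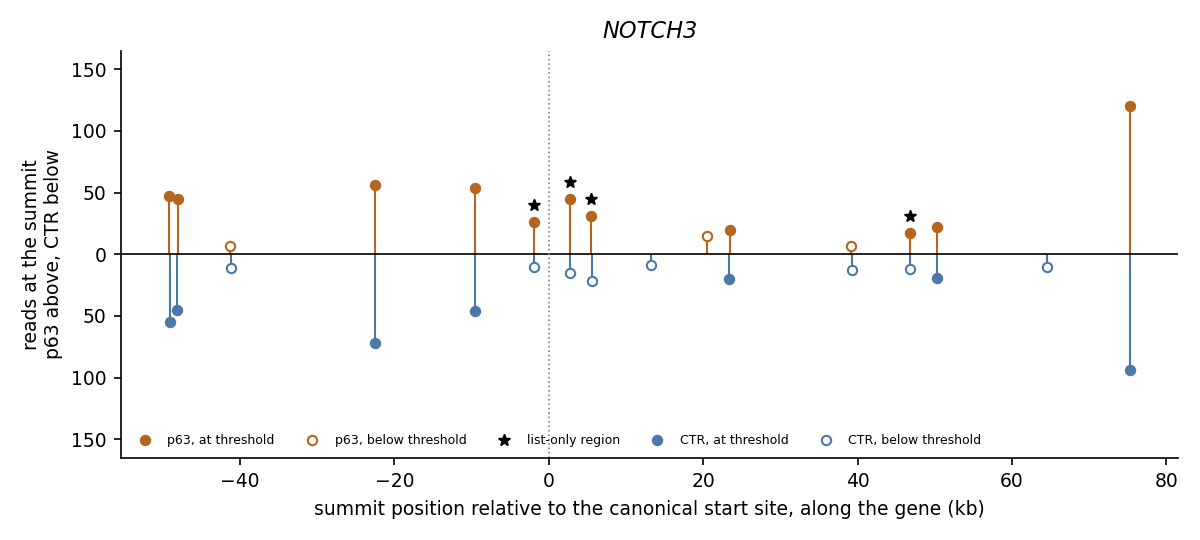
Reads at the summit of each peak at NOTCH3, p63 list upwards and CTR list downwards, by distance of the summit from the canonical start in kb along the gene. Filled points reach the threshold and stars mark list-only regions; 3 of the 4 stars lie close to the start, where the CTR peaks had 10, 15 and 22 reads.

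NOTCH1 (ENSG00000148400.13, chr9:136494433-136546048, minus strand), the receptor best known in keratinocyte differentiation, had 5 regions in each list, all shared. The region at its start had 76 CTR reads and 80 p63 reads, a ratio of 1.05 (0.759 to 1.46), at summits 209 bp apart. The 3 regions further upstream, at 6413, 12138 and 22115 bp, had CTR and p63 reads of 47 and 36, 47 and 53, and 37 and 25. None of these ratios had an interval that left out 1.

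NOTCH2 (ENSG00000134250.21, chr1:119911553-120100779, minus strand), a receptor with several partial copies on the same chromosome, had 15 CTR and 16 p63 regions, of which 12 were shared. At 10 of the 15 CTR regions and 12 of the 16 p63 regions, the same sequence stood elsewhere on chromosome 1 with at least 95% identity over 80% of its length, so reads of these places may have been divided among copies and the counts are uncertain. This held for all 4 p63-only regions and 2 of the 3 CTR-only ones, and for the region at the canonical start, which had 82 CTR reads and 79 p63 reads (ratio 0.963, 0.698 to 1.33).

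The p63-only regions of NOTCH2 had low counts. The region 23261 bp from the nearest start (chr1:120123827-120124269) had 14 CTR reads and 29 p63 reads, a ratio of 2.07 (1.06 to 4.24). This interval does not allow for the selection by the threshold. In intron 1, chr1:120068522-120069104 had 28 and 34 reads (1.21, 0.715 to 2.08), and chr1:120050912-120051085 had 19 p63 reads and no CTR peak. In intron 4, chr1:119990929-119991284 had 21 and 20 reads (0.952, 0.490 to 1.85), so it was p63-only by the threshold and not by its reads.

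The CTR-only regions of NOTCH2 had fewer p63 than CTR reads, as their selection by the threshold makes likely. The region chr1:120117362-120117972, 16766 bp from the nearest start, had 25 CTR reads and 10 p63 reads, a ratio of 0.400 (0.171 to 0.862). In intron 16, chr1:119948513-119949300 had 23 and 16 reads (0.696, 0.343 to 1.37), and in intron 2, chr1:120014934-120015475 had 21 and 14 (0.667, 0.314 to 1.37). Only the interval of the first region left out 1, and that region also had a near-identical copy. A shared region in exon 7 of NOTCH2 (chr1:119968000-119968485, coding) had 18 CTR reads and 29 p63 reads (1.61, 0.865 to 3.08).

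Among the ligands, JAG1 (ENSG00000101384.12, chr20:10637684-10673999, minus strand), a ligand expressed in many mesenchymal and epithelial cells, had 11 CTR regions and 9 p63 regions, of which 8 were shared. The region at its start had 80 CTR reads and 100 p63 reads, a ratio of 1.25 (0.922 to 1.70), and one in intron 2 had 84 and 87 (1.04, 0.759 to 1.42). Over the 8 shared regions the median ratio was 1.25, from 0.630 to 1.42, and every interval included 1. The lowest was at chr20:10634864-10635445, 6106 bp from the nearest start, with 46 CTR reads and 29 p63 reads (0.630, 0.382 to 1.03).

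JAG1 was the only gene of the 10 with regions in each list that had no peak in the other. The p63 list alone had a peak at chr20:10713336-10713660, 39507 bp upstream, with 20 reads. The CTR list alone had peaks at chr20:10625523-10625862, downstream of the gene, with 19 reads, and at chr20:10596727-10597085, which lies 1815 bp from a start of SLX4IP, with 28 reads. A further CTR-only region, 35027 bp upstream (chr20:10708651-10709277), had 25 CTR reads and 15 p63 reads, a ratio of 0.60 (0.294 to 1.18). All 4 had fewer reads than the median shared region of their list.

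**Figure D3:**
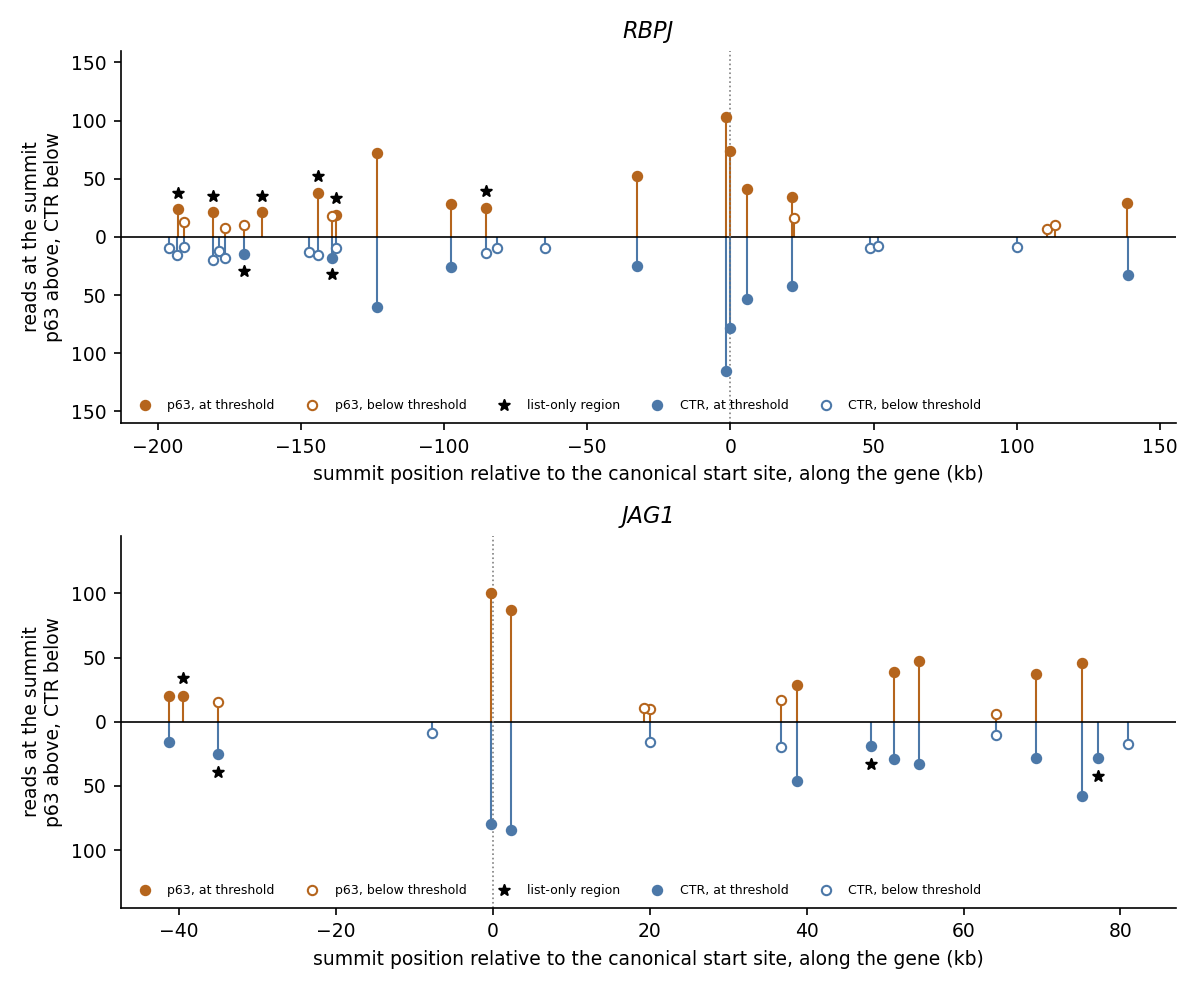
Reads at the summit of each peak at RBPJ (upper panel) and JAG1 (lower panel), p63 list upwards and CTR list downwards, by distance from the canonical start in kb along the gene. Stars mark list-only regions; the 6 p63-only regions of RBPJ all lie upstream of the canonical start, and the regions at the canonical starts appear on both sides, with 78 CTR and 74 p63 reads at RBPJ and 80 and 100 at JAG1.

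JAG2 and DLL1 had few open regions. JAG2 (ENSG00000184916.9, chr14:105140982-105168824, minus strand) had 2 CTR regions and 1 p63 region, and none lay at its start. The shared one, 34458 bp upstream, had 30 CTR reads and 34 p63 reads (1.13, 0.673 to 1.92). The CTR-only one (chr14:105197276-105197689) had 28 CTR reads and 20 p63 reads (0.714, 0.381 to 1.31), and the nearest protein-coding gene to both was BRF1. The peak nearest to the JAG2 start was below the threshold in each list, 7466 bp away with 12 reads in CTR and 2700 bp away with 17 reads in p63. Below the threshold JAG2 had 3 more CTR peaks and 9 more p63 peaks.

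DLL1 (ENSG00000198719.9, chr6:170282206-170306565, minus strand) had 1 region in each list, shared, with 46 CTR reads and 51 p63 reads (1.11, 0.730 to 1.69). It lies at the outermost DLL1 start, 113 bp away, and 80 bp from a start of FAM120B, to which it would be assigned as well. Next to the canonical start of DLL1 both lists had a peak below the threshold, with 14 CTR reads and 15 p63 reads (1.07, 0.482 to 2.40). No difference was detectable at this depth.

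RBPJ (ENSG00000168214.22, chr4:26163455-26435131, plus strand), which carries the Notch signal to DNA, had 10 CTR regions and 14 p63 regions, of which 8 were shared. The canonical start had 78 CTR reads and 74 p63 reads (0.949, 0.681 to 1.32), at summits 286 bp apart. An alternative start upstream of it (chr4:26319045-26319933), whose promoter is the one printed above with the RBPJ motif on both strands, had 115 and 103 reads (0.896, 0.680 to 1.18), the highest CTR value of the 10 genes.

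The p63-only regions of RBPJ were spread over the outer part of the gene and the sequence before it. The region chr4:26176702-26177323, 13412 bp from the nearest annotated start and shown above, had 16 CTR reads and 38 p63 reads, a ratio of 2.38 (1.29 to 4.56). The region chr4:26157169-26157392, 6130 bp before the outermost start, had 21 p63 reads and no CTR peak, with a −log10 q of 17.8. The former had the highest ratio among the p63-only regions of RBPJ, and the latter alone lacked a CTR peak. All p63-only regions of RBPJ were selected by the threshold in favour of the p63 list, and the intervals do not allow for that.

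The other 4 had intervals that included 1. Their CTR and p63 reads were 16 and 24 at chr4:26127830-26128276 (ratio 1.5, 0.764 to 3.02), 20 and 21 at chr4:26140006-26140442 (1.05, 0.542 to 2.04), 10 and 19 at chr4:26182993-26183497 (1.90, 0.841 to 4.57), and 14 and 25 at chr4:26235514-26235908 (1.79, 0.893 to 3.72). At these counts no difference was detectable in any of them.

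A shared region inside RBPJ also had more reads with p63. The region chr4:26288228-26288842, 31121 bp from the nearest start, had 25 CTR reads and 52 p63 reads, a ratio of 2.08 (1.27 to 3.50), the highest of the shared regions. The CTR-only regions of RBPJ had 15 CTR and 10 p63 reads (chr4:26151067-26151506; 0.667, 0.268 to 1.59) and 18 and 18 reads (chr4:26181533-26181930; 1.0, 0.491 to 2.04). The latter thus differed between the lists in its −log10 q and not in its reads.

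Among the effectors, HES1 (ENSG00000114315.4, chr3:194136148-194138732, plus strand), a repressor of differentiation genes, had 4 regions in each list, all shared. The region at its start, with the RBPJ motif, had 101 CTR reads and 83 p63 reads, a ratio of 0.822 (0.607 to 1.11). The region 1102 bp upstream had 84 and 92 reads (1.10, 0.806 to 1.49), and that 5648 bp downstream had 62 and 67 (1.08, 0.754 to 1.55). A region 46424 bp upstream (chr3:194089352-194089923) had 59 CTR reads and 91 p63 reads, a ratio of 1.54 (1.10 to 2.18). It was the single HES1 region with an interval above 1, and the nearest start was that of a gene without a symbol, ENSG00000229964, at 1837 bp.

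HEY1 (ENSG00000164683.19, chr8:79762371-79767857, minus strand), a repressor best known in blood vessels and heart, had 6 regions in each list, all shared, with ratios from 0.739 to 1.06. At its start the lists had 69 CTR reads and 70 p63 reads (1.01, 0.717 to 1.44), at summits 644 bp apart. That ratio thus compares different places of overlapping peaks. A region in coding exon 5 had 45 CTR reads and 39 p63 reads (0.867, 0.550 to 1.36), and one 25937 bp upstream of the gene's nearest start had 38 in each list. None of the 6 differed between the lists beyond counting error.

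HEY2 (ENSG00000135547.9, chr6:125747664-125761269, plus strand), its close relative, had 3 CTR regions and 5 p63 regions. The region at its start, with an RBPJ motif, had 40 CTR reads and 42 p63 reads (1.05, 0.665 to 1.66). The p63-only region (chr6:125773476-125773902), 23950 bp downstream of the start, had 14 CTR reads and 28 p63 reads. Its ratio was 2.0 (1.02 to 4.11), with no allowance for the selection by the threshold. Its summit window held the RBPJ motif, as printed above, and the nearest protein-coding start, at 7579 bp, was that of NCOA7. The other 3 p63 regions lay 90, 770 and 822 bp from starts of NCOA7. The first and the last of these overlapped a single CTR region, so that 1 pair (27 p63 reads against 70 CTR reads, ratio 0.386, 0.238 to 0.609) compares different summits.

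**Figure D4:**
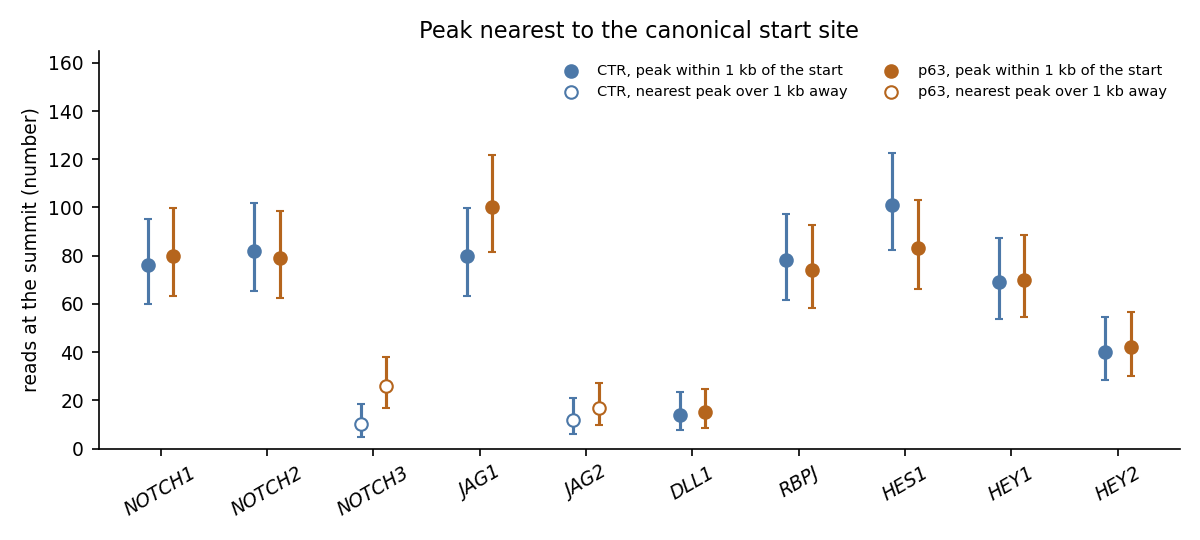
Reads at the summit of the peak nearest to the canonical start of each gene in the CTR and p63 lists, with exact 95% Poisson intervals. Open points lie more than 1 kb from the start, and NOTCH3, JAG2 and DLL1 have at most 26 reads. CTR and p63 intervals overlap at every gene, although the ratio at NOTCH3, a p63-only region, was 2.60 (1.21 to 6.04). At JAG2 the points are different peaks that do not overlap.

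Over the 56 shared p63 regions of the 10 genes, the median p63/CTR ratio of reads was 1.01 (0.931 to 1.08), with quartiles of 0.864 and 1.13. It was 1.0 over all 47412 shared regions of the p63 list. The limits given for the median are not a counting interval. They equal ratios of single regions, which come from 1 list per group and are not replicates. At least 1.5 times the CTR reads were found at 3 (7.24% of all shared regions), those of RBPJ, HES1 and NOTCH2 given above. At least 1.5 times the p63 reads were found in the CTR list at 2 (5.02% of all), those of JAG1 and HEY2, the last with summits 955 bp apart. By role, the median ratio was 0.959 for the 24 receptor regions, 1.19 for the 10 ligand regions, 0.922 for the 8 RBPJ regions and 1.02 for the 14 effector regions.

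Few ratios had an interval that left out 1. This was so for 2 shared regions above 1, at RBPJ and HES1 (5.65% of all shared regions), and for 1 below it, the HEY2 pair (2.21%). Among the 13 p63-only regions with a weaker CTR peak it was so for 5 (38.5%, 17.7 to 64.5%), against 27.6% of all such regions: 2 at NOTCH3 and 1 each at NOTCH2, RBPJ and HEY2. Among the 7 CTR-only regions with a weaker p63 peak it was so for 1, at NOTCH2 (10.7% of all such regions). The direction of these list-only ratios follows from the selection by the threshold. Over the whole lists, 0 of 7472 such p63-only regions had an interval below 1, and 0 of 7475 such CTR-only regions had one above 1. The intervals do not allow for that selection, so they do not show a difference apart from it.

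**Figure D5:**
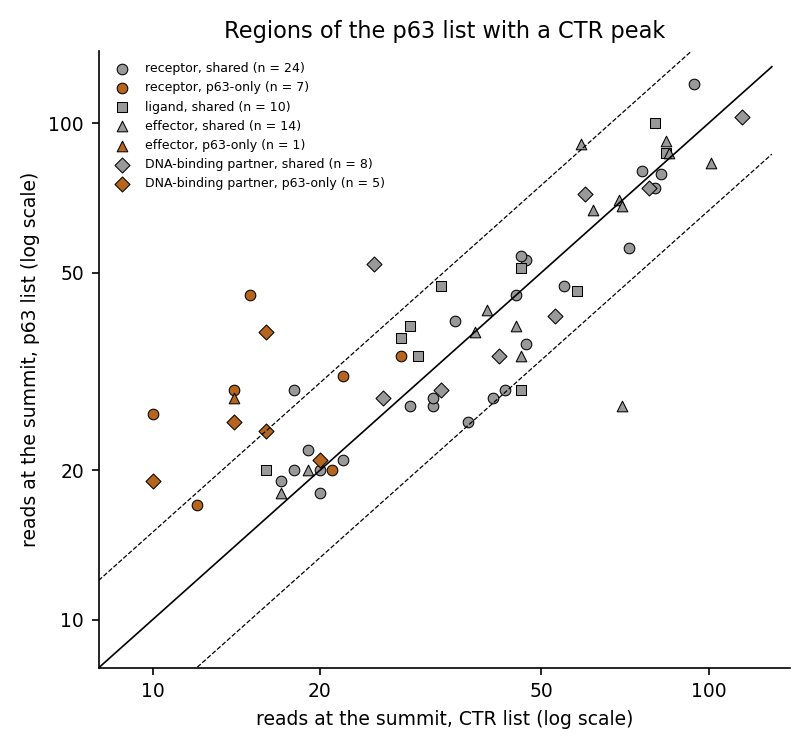
Reads at the summit in the CTR list (horizontal, log scale) and in the p63 list (vertical, log scale) for the p63 regions with a CTR peak, by role of the gene. The solid line marks equal reads and the dashed lines a ratio of 1.5 either way; the p63-only regions (brown) have at most 28 CTR reads, and the shared regions scatter about the solid line.

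In position the regions resembled the lists as a whole. Within 3 kb of any start lay 26 of 64 CTR regions (40.6%; 40.4% of all) and 30 of 72 p63 regions (41.7%; 39.4% of all). Among the 16 p63-only regions this was so for 4, of which 3 were near a start of 1 of the 10 genes. The share over all p63-only regions is not given here, so these 4 have no like background. The nearest protein-coding gene was among the 10 for 47 of 64 CTR regions and 54 of 72 p63 regions, and for 15 of the 16 p63-only and 7 of the 9 CTR-only regions. The other regions lie nearer to neighbours such as SEC22B, SLX4IP, NCOA7 and BRF1.

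Within 100 bp of a summit, no open region of these genes held the p63 family site at the limit of 3 mismatches. It was at 0 of the 16 p63-only regions (upper limit 19.4%; 11.4% of all p63-only regions) and at 0 of all 72 (upper limit 5.07%; 3.78% of all p63 regions). With 4 mismatches allowed, 4 of 16 p63-only regions had a site (25%, 10.2 to 49.5%; 21.9% of all p63-only) and 5 of 72 (6.94%, 3.0 to 15.2%; 8.28% of all). These 4 are written here with the mismatched bases in capitals, on the plus strand. At RBPJ, upstream means before the canonical start, and the site lies within the annotated gene.
NOTCH3 intron 1, chr19:15198174-15198193: aggcatgtGcTgCcCtgtcc
NOTCH3 intron 2, chr19:15195601-15195620: aaacaGgtcGgggcaCgGcc
NOTCH3 downstream, chr19:15154109-15154128: aagcatgtccTaTcaagtAA
RBPJ upstream, chr4:26176846-26176865: TgCcttgcttgaacCagGct
The first and the last of them lay in the p63-only regions of NOTCH3 and RBPJ with the highest ratio of each gene. The NOTCH3 region with a ratio of 2.60 had no such site, and those with the other sites had ratios of 1.41 and 1.42. When whole peaks were searched with the limit of 3 mismatches, 2 of the 72 open p63 regions held a site (2.78%, 0.765 to 9.57%; 6.50% of all p63 regions), each with 2 mismatches. These were the region 46424 bp upstream of HES1, with 59 CTR reads and 91 p63 reads, and that next to ILVBL, with 94 and 120, both of them shared. The 16 p63-only regions again held none (15.0% of all p63-only regions). A match of letters does not show that p63 bound there.

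Within 100 bp of a summit, sites with at most 3 mismatches were found in the p63 list at 6 peaks, all below the threshold. The share over all peaks below the threshold is not given here, so the 6 cannot be read as a trait of these genes. The 3 with 2 mismatches are shown, with mismatches again in capitals.
NOTCH1, chr9:136583392-136583411: gggctGgcccgggctGgccc
NOTCH2 intron 1, chr1:120044970-120044989: gTgcttgGttaaacttgttt
RBPJ exon 11, untranslated, chr4:26434177-26434196: aggcatgtttaTacatgAct
Their peaks had 16 p63 and 9 CTR reads at NOTCH1, 13 and 8 at NOTCH2, and 10 p63 reads with no CTR peak at RBPJ. Of the 3 peaks with 3 mismatches, 1 went the other way, at NOTCH1 (chr9:136579182-136579405), with 9 p63 and 17 CTR reads. The others, at NOTCH1 (chr9:136592804-136593003) and JAG2 (chr14:105097528-105097824), had 12 and 15 p63 reads and no CTR peak.

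The RBPJ motif (GTGGGAA) was within 100 bp of the summit at 8 of 64 CTR regions (12.5%, 6.47 to 22.8%; 4.45% of all CTR regions) and 7 of 72 p63 regions (9.72%, 4.79 to 18.7%; 4.58% of all). Those of the p63 list were the starts of HES1 and HEY2, the alternative start of RBPJ, 2 regions downstream of JAG1 and 2 downstream of HEY2. The nearest protein-coding gene was SLX4IP for both regions near JAG1 and NCOA7 for both downstream of HEY2, 1 of them 90 bp from an NCOA7 start. At the alternative start of RBPJ, the CTR summit lay 191 bp away and had no motif within 100 bp. The shares thus do not describe the Notch genes alone. Of the 16 p63-only regions, 1 held it (6.25%, 1.11 to 28.3%; 4.65% of all p63-only), the region near HEY2.

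The other motifs, searched on both strands, gave shares with intervals that included those of the lists. The AP-1 motif (TGANTCA) was at 17 CTR regions (26.6%; 34.2% of all) and 21 p63 regions (29.2%; 32.5%), and the KLF motif (GGGNGNGGC) at 9 (14.1%; 13.5%) and 13 (18.1%; 13.7%). The TEAD motif (GGAATG) was at 18 CTR regions (28.1%; 19.0%) and 14 p63 regions (19.4%; 18.3%), and the CTCF motif at 5 (7.81%; 9.78%) and 5 (6.94%; 8.40%). Among the 16 p63-only regions, AP-1 was at 4 (29.4% of all p63-only), KLF at 2 (9.88%), TEAD at 1 (18.0%) and CTCF at 0 (upper limit 19.4%; 6.94%). The RBPJ and TEAD motifs share the letters GGAA, so their matches can overlap, and a match says nothing of binding.

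The other genes of the pathway, 47 in all, were counted by the same rule. They had 340 CTR regions, of which 50 were CTR-only (14.7%, 11.3 to 18.9%; 16.5% of all CTR regions and 15.4% near any protein-coding gene), 11 of these without a p63 peak (3.29% of all CTR regions). They had 357 p63 regions, of which 72 were p63-only (20.2%, 16.3 to 24.6%; 23.9% of all p63 regions and 22.9% near any protein-coding gene). Of these 72, 34 had no CTR peak (12.0% of all p63 regions) and 12 had a p63 site within 100 bp of the summit (11.4% of all p63-only regions). The p63-only counts were 5 of 27 regions at the other receptors and ligands, 17 of 85 at genes of receptor processing (proteases and glycosyltransferases), 25 of 119 at nuclear cofactors, 12 of 51 at other HES and HEY genes and NRARP, and 16 of 78 at regulators such as NUMB and ubiquitin ligases. At least 1 p63-only region was found at 35 of the 47 genes (58.2% of protein-coding genes), and 1 CTR-only region at 27 (41.9%).

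Some of these genes had p63-only regions with no CTR peak and a p63 site. The 5 with the highest −log10 q were at MAML2, a coactivator of Notch (chr11:96109437-96109855, 43 p63 reads), NUMBL, a relative of the Notch inhibitor NUMB (chr19:40719070-40719366, 97 reads, nearest to COQ8B), HES6, a relative of HES1 (chr2:238267269-238267914, 44 reads, nearest to PER2), DLL3, an inhibitory ligand (chr19:39543402-39543778, 55 reads, nearest to EID2), and HEYL, a relative of HEY1 (chr1:39592135-39592524, 29 reads, nearest to PABPC4). The site at DLL3 had 1 mismatch and the others had 3. Whether the shares differ between these genes and the 10 was not tested.

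The labelled cell type was checked by regions within 1 kb of the starts of marker genes. Of 12 fibroblast genes, 11 were open in both lists, the exception being COL3A1. Of 12 keratinocyte genes, 3 were open with KLF4 alone and 4 with p63, EPCAM being the addition, while KRT5, KRT14, KRT1, KRT10, DSG3, DSC3, IVL and SFN had no open region in either. Endothelial genes had 0 of 5 in both lists, leukocyte genes 2 and 1 of 5, and melanocyte genes 2 of 5 in both. The share of all genes open by this rule is not given here, so these counts have no like background. Background coverage was 1.18 reads for CTR and 1.13 for p63 (ratio 0.957), and the median of 33 reads at the summit was the same in both, so the counts were compared as they stood.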

How the data were processed

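ATAC-seq was performed in 2 CTR and 2 p63 samples. Reads were mapped by the authors with Bowtie2 2.3.4.3 (hg38), who called peaks with MACS2, per their methods using both replicates of a condition. Each deposited list, however, names 1 alignment made from 2 inputs, which may be the replicates or the read mates of a single library. In the latter case the reads and intervals would describe 1 library per group. MACS2 options, removal of duplicates, read shift and excluded regions are not given in the sources used here. For each peak the deposited lists hold a score, a fold enrichment (the ratio of pileup to local background), −log10 p and −log10 q values and the offset of the summit. No scaling between the deposited lists is stated.

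The number of reads at each summit was solved from the fold enrichment and the −log10 p, which succeeded within 0.001 for all 122 and 124 peaks at the members and for 99.98% of all CTR peaks. Peaks at a −log10 q of 10 or more on chromosomes 1 to 22, X and Y were matched by an overlap of 1 bp and annotated with GENCODE 44. The matching gave the same pairs as bedtools 2.31.1 on simulated intervals. Sequences were read with pysam 0.24.0 and copies of NOTCH2 regions found with blastn 2.17.0. Shares have 95% Wilson intervals, and ratios of single regions have exact Clopper-Pearson intervals (scipy 1.17.1, statsmodels 0.14.6), which cover counting error only. The solving was checked on simulated data. With 1 list per group no test was possible.

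All 10 members were named, each with the region at its canonical start and its list-only regions, at most 6 per gene. Other pathway genes were named for p63-only regions with a p63 site and no CTR peak, at most 5, by −log10 q. The members, lists and rules were chosen with earlier results of these data known. Alternatives were other thresholds, windows, overlaps, mismatch limits and scalings, equal numbers of top-ranked peaks, and the members without NOTCH2. Coordinates are 1-based on GRCh38.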

Additional observations from a re-analysis of the deposited data

How the results depend on the processing

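The main counts moved mostly with the threshold and the distance. With all deposited peaks, the 10 genes had 122 CTR regions, 23 of them CTR-only and 23 absent from the p63 list, and 124 p63 regions, 24 of them absent from the CTR list and 3 p63-only ones with a p63 site. With a −log10 q of at least 20, 40 CTR regions remained, 0 of them absent from the p63 list, and 39 p63 regions, 6 p63-only and 0 absent from the CTR list. Within 100 kb there were 97 CTR regions, 16 CTR-only and 5 of these absent, and 111 p63 regions, 28 p63-only, 10 of these absent and 1 with a p63 site. Within 25 kb, and with a member as the nearest protein-coding gene, 1 CTR region was absent from the p63 list. With 4 mismatches 4 p63-only regions had a site. Why these counts moved was not tested.

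The other 58 of 79 values kept within 1.5 times the reported count or inside the interval of the reported value. The p63-only share minus that of all regions was −1.73 points, from −9.20 to 3.83 over the alternatives, and the CTR-only share minus that of all regions was −2.41 points, from −5.07 to 2.15. Both thus changed sign within their counting intervals. The median ratio of shared regions ranged from 0.993 to 1.05. Without NOTCH2, whose regions have near-identical copies, 6 of 49 CTR regions and 12 of 56 p63 regions were list-only. With summits within 200 bp, an alternative chosen after seeing the data, 51 shared regions had a median ratio of 1.02, with 3 at least 1.5 times higher in p63 and 1 in CTR. No paired analysis was possible because each group has 1 list without values per replicate, and for the same reason no replicate could be left out. Depth limits single regions, since at 20 reads in each list the NOTCH3 ratio of 1.0 had an interval of 0.511 to 1.96.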
